A study of Drosophila melanogaster with 10 samples.

Results

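Axonemal dyneins are the motors that bend the sperm tail. Each arm holds a heavy chain, which is the motor, with intermediate and light chains, and a docking complex fixes the outer arm to the microtubule doublets. Fly spermatocytes transcribe most sperm-tail genes before meiosis, and several transcripts are stored and translated only in the elongating spermatid. The genes described here are 9 of the 17412 genes in the count tables, taken by their FlyBase identifiers: the heavy chains Dhc36C, Dhc62B, Dhc93AB and Dhc98D, the Roadblock-type light chains robl37BC, robl22E, robl62A and robls54B, and Ccdc114. Ccdc114 is not a chain but, in humans and Chlamydomonas, a component of the outer-arm docking complex. All 9 lie on autosomes and none on the X chromosome, although the group was drawn up as autosomal and X-linked. All 9 passed the low-count filter, Dhc93AB with only 107 counts over all 10 libraries.

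RNA was taken from whole testes of Drosophila melanogaster, 100 pairs a library, from males under 2 days old, in 5 conditions with 2 libraries each. Knockdown flies carried w, an RNAi construct against B9d1 (a transition zone protein of cilia), Tektin-C (a protein of axonemal microtubules) or Klp59D (a kinesin), the driver bam-Gal4 and UAS-dicer2, and were grown at 22 °C for 3 days and then at 30 °C for 8 days. bam-Gal4 acts in late spermatogonia, and the dicer2 transgene and the warm shift were shared by the 3 knockdowns and by neither other condition. sa-/- males, which lack a testis-specific TAF needed for spermatid gene transcription, were grown at 22 °C for 12 days, and wild-type (WT) males at 22 °C for 10 days. The labels call B9d1 knockdown (KD) testes enriched in young spermatocytes, those of the Tektin-C KD, Klp59D KD and sa mutant mature spermatocytes, and WT testes a mixture of all stages.

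The deposited values are raw read counts, with library totals between 17621525 and 30798942. The 2 libraries of a condition differed by little more than sampling noise (median squared deviation 1.04 to 1.11 times that of counting alone, 6.08% to 6.39% of genes outside their 95% range), and nothing in the labels says that they came from separate flies. They were summed, each condition is 1 sample, and no test between conditions was possible. Levels are counts per 1000000 (CPM) scaled by TMM factors, and a gene is called when its log2 fold, with a prior count of 2, reaches a 2-fold difference. Intervals are exact at the 95% level and cover counting error only. B9d1 had 8.91 and 9.92 CPM in B9d1 KD libraries, against 109.4 and 108.4 CPM in WT libraries, and sa had 3.73 and 3.24 CPM in sa mutant libraries, against 36.7 and 41.4 CPM in WT libraries. Tektin-C had 201.2 and 204.3 CPM in Tektin-C-labelled libraries and 12.7 and 11.6 CPM in Klp59D-labelled libraries, against 217.2 and 224.9 CPM in WT libraries. Klp59D had 29.3 and 30.0 CPM in Tektin-C-labelled libraries and 333.4 and 336.5 CPM in Klp59D-labelled libraries, against 332.5 and 347.2 CPM in WT libraries. These 2 labels went against their target genes, so these samples are called by their labels (Tektin-C-labelled, Klp59D-labelled) throughout, and every direction drawn from them concerns the library and not the named knockdown.

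**Figure D1:**
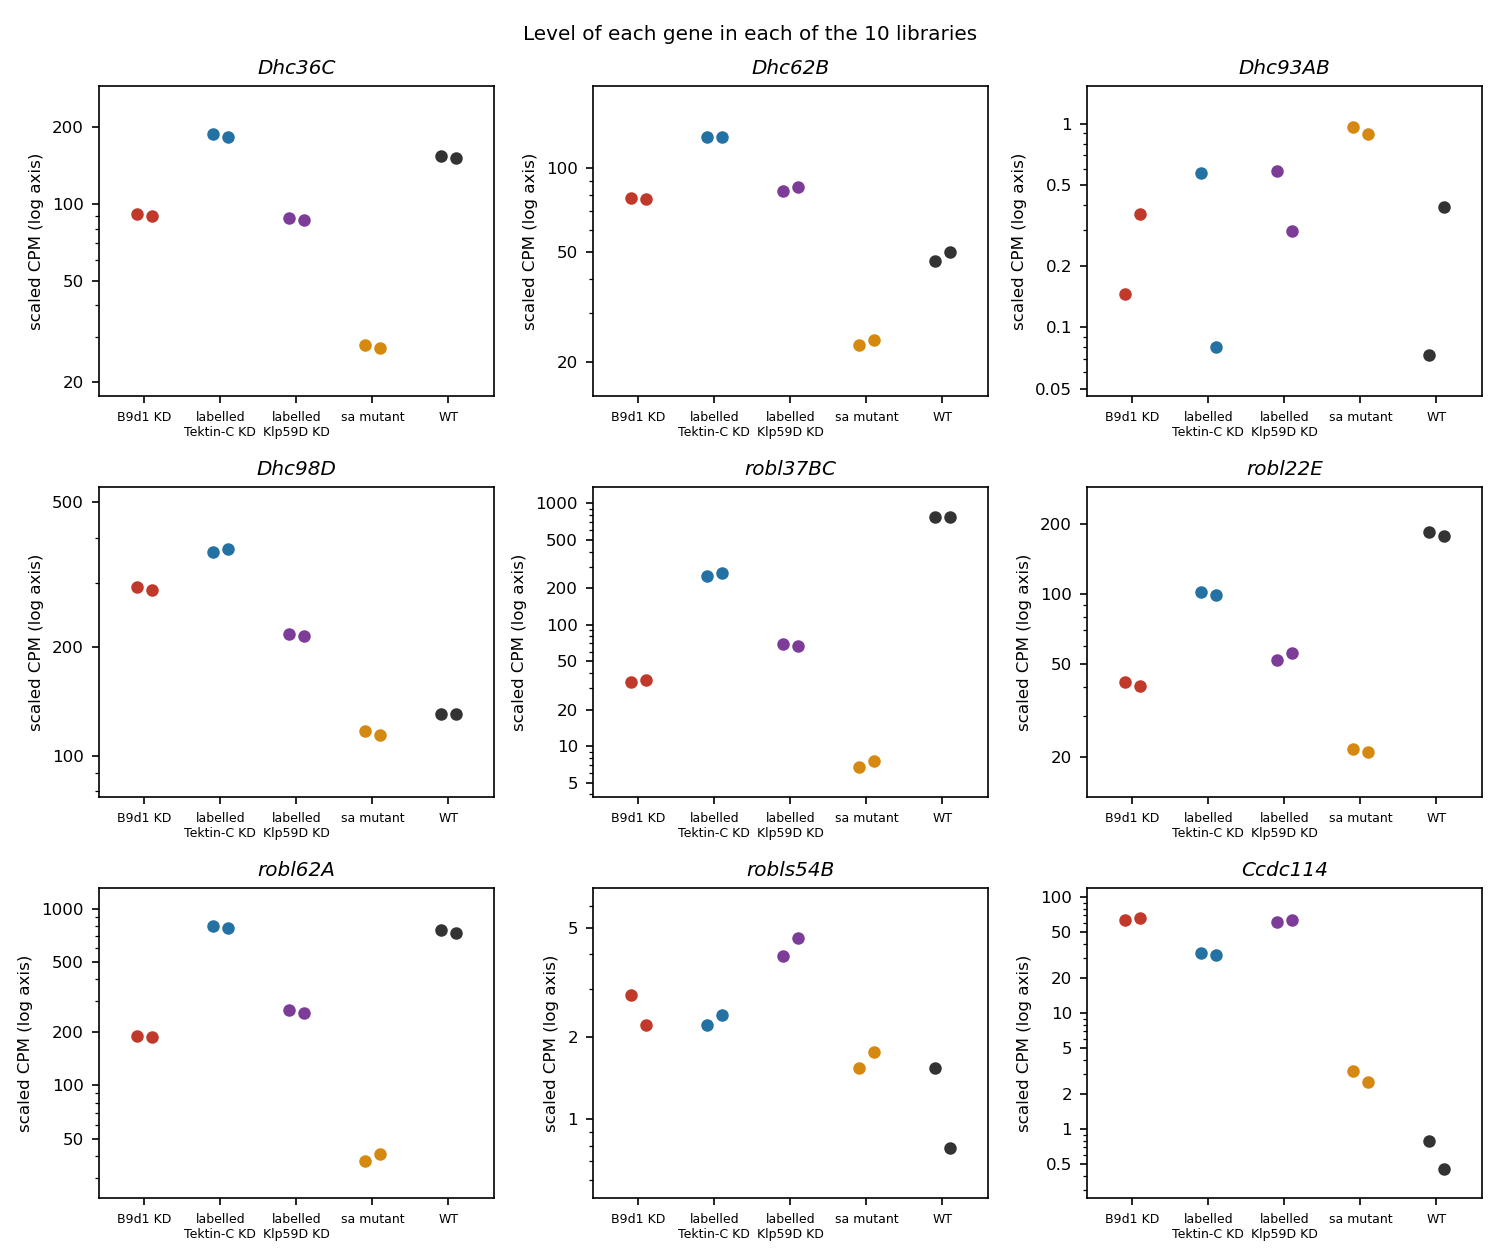
Scaled CPM (log axis, a separate scale for each gene) of the 9 genes in each of the 10 libraries, with 2 points for each condition. Libraries of a condition lie close together except for Dhc93AB, robls54B and, in WT, Ccdc114, which had few counts there. The roadblock genes robl37BC and robl22E are highest in WT, and Ccdc114 is lowest there.

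Dhc98D, an axonemal dynein heavy chain, had the highest level per exon length of the 4 heavy chains in every sample but WT, and more RNA in the 3 knockdown samples than in WT. Dhc98D (3R:28486953-28519398, plus strand, dm6 coordinates, 48 exons) had 292.5 and 286.8 CPM in B9d1 KD libraries, 366.2 and 371.5 in Tektin-C-labelled libraries, 216.6 and 214.4 in Klp59D-labelled libraries, and 117.4 and 114.3 in sa mutant libraries, against 130.2 and 130.3 CPM in WT libraries. The 3 knockdown samples lay above WT, and the sa mutant lay just under it. Its ratio to WT was 2.22 (2.15 to 2.30) in B9d1 KD and 2.83 (2.74 to 2.94) in the Tektin-C-labelled sample, which passed the 2-fold line, and 1.65 (1.60 to 1.72) in the Klp59D-labelled sample, which did not but passed with library size alone (log2 fold 1.27). The ratio in the sa mutant, 0.889, turned above 1 when library size alone set the scale (log2 fold -0.17, against 0.60), a scale on which the median of all genes moved by 0.76.

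Dhc62B, an inner-arm heavy chain studied in the hearing organ of the fly, had the same order of conditions apart from the places of B9d1 KD and the Klp59D-labelled sample. Dhc62B (3L:1759172-1771758, minus strand) had 78.3 and 77.5 CPM in B9d1 KD libraries, 129.4 and 129.0 in Tektin-C-labelled libraries, 82.8 and 85.5 in Klp59D-labelled libraries, and 23.0 and 23.9 in sa mutant libraries, against 46.2 and 49.7 CPM in WT libraries. All 3 knockdown samples lay above WT and the sa mutant below it. It was called higher in the Tektin-C-labelled sample (2.69-fold, 2.54 to 2.85) and lower in the sa mutant (2.05-fold lower, 1.89 to 2.21). The call in the sa mutant was lost without WT replicate 2 (log2 fold -0.94) and with library size alone (-0.26), and on that scale B9d1 KD (1.28) and the Klp59D-labelled sample (1.36) passed the line. Its last 37 bases lie opposite an exon of CG8001, and the strand setting of the counting is not given, so a few reads may be shared.

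Dhc36C, another axonemal heavy chain, followed a different order. Dhc36C (2L:17501401-17525515, plus strand) had 91.2 and 89.7 CPM in B9d1 KD libraries, 187.7 and 182.1 in Tektin-C-labelled libraries, 88.1 and 86.7 in Klp59D-labelled libraries, and 28.1 and 27.2 in sa mutant libraries, against 154.3 and 151.3 CPM in WT libraries. B9d1 KD and the Klp59D-labelled sample did not differ beyond counting error (1.03-fold, 0.995 to 1.07), and the other neighbours in the order did. The gene was called in the sa mutant, where it was 5.53-fold lower than in WT (5.20 to 5.89). CG15143 lies within Dhc36C on the opposite strand and shares no exon base with it; it was higher than in WT in all 3 knockdown samples (log2 fold 2.18 to 2.29), unlike its host.

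Dhc93AB, an outer-arm heavy chain known from chordotonal neurons, the stretch and hearing receptors, was at a trace level in these testes. Dhc93AB (3R:21024580-21042499, minus strand) had 4 and 11 counts in B9d1 KD libraries, 13 and 2 in Tektin-C-labelled libraries, 16 and 9 in Klp59D-labelled libraries, and 22 and 23 in sa mutant libraries, against 1 and 6 counts in WT libraries. Dhc93AB was highest in the sa mutant, while libraries of a condition differed by up to 7.22-fold. Its ratio of sa mutant to WT was 3.85, with a counting interval of 1.72 to 10.1. The log2 fold of 1.78 went to 1.18 without WT replicate 1 and to 3.07 without WT replicate 2. No neighbours in the order of the other 4 samples differed beyond counting error. Leaving out single libraries took the Tektin-C-labelled sample to either side of WT (log2 fold -1.20 to 1.63, without its replicate 1 and without WT replicate 2), and both other knockdown samples past the line without WT replicate 2 (1.39 in B9d1 KD, 2.05 in the Klp59D-labelled one). Of the ciliated sensory neuron genes, nan (3.99 CPM in the sa mutant, 0.207 in WT) and nompC (2.71 and 0.138) were higher in the sa mutant too. nompA (0.165 CPM in the sa mutant, 0.310 in WT), Oseg1 (12.2 and 23.1) and Oseg4 (2.29 and 4.34) were lower, short of the line. ato was at 0.0207 CPM in the sa mutant and 0 in WT. Of 11 genes tested on that marker list, 5 were called higher in the sa mutant and 0 lower, against 26.4% and 27.7% of all genes. The summed level of all 12 genes on that marker list was 57.7 to 58.6 CPM in sa mutant libraries and 46.7 to 49.0 CPM in WT libraries. The part of such cells in the Dhc93AB counts was not tested.

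Levels per kilobase of exon allow the heavy chains to be set beside each other. In B9d1 KD, Dhc98D stood at 18.2 CPM per kilobase, Dhc36C at 7.33, Dhc62B at 6.44 and Dhc93AB at 0.0185. In WT, the level per kilobase was 8.18 for Dhc98D, 12.4 for Dhc36C, 3.98 for Dhc62B and 0.0172 for Dhc93AB. The leading gene of the 4 was therefore Dhc98D in B9d1 KD and Dhc36C in WT. Dhc98D made up 56.9% of the 4 genes' summed level per kilobase in B9d1 KD, 47.4% in the Tektin-C-labelled sample, 49.0% in the Klp59D-labelled one and 63.1% in the sa mutant, against 33.3% in WT. Dhc36C held 22.9%, 30.7%, 25.7% and 19.4% in those 4 samples, against 50.4% in WT.

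The ratio of 2 genes within a library does not depend on the scaling between libraries. Counts of Dhc98D relative to Dhc36C were 3.21 and 3.20 in B9d1 KD libraries, 1.95 and 2.04 in Tektin-C-labelled libraries, 2.46 and 2.47 in Klp59D-labelled libraries, and 4.18 and 4.21 in sa mutant libraries, against 0.844 and 0.862 in WT libraries. Counts of Dhc62B relative to Dhc36C were 0.859 and 0.864 in B9d1 KD libraries, 0.689 and 0.708 in Tektin-C-labelled libraries, 0.940 and 0.986 in Klp59D-labelled libraries, and 0.819 and 0.881 in sa mutant libraries, against 0.300 and 0.329 in WT libraries. WT stood apart from the other samples in both ratios, on the low side.

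**Figure D2:**
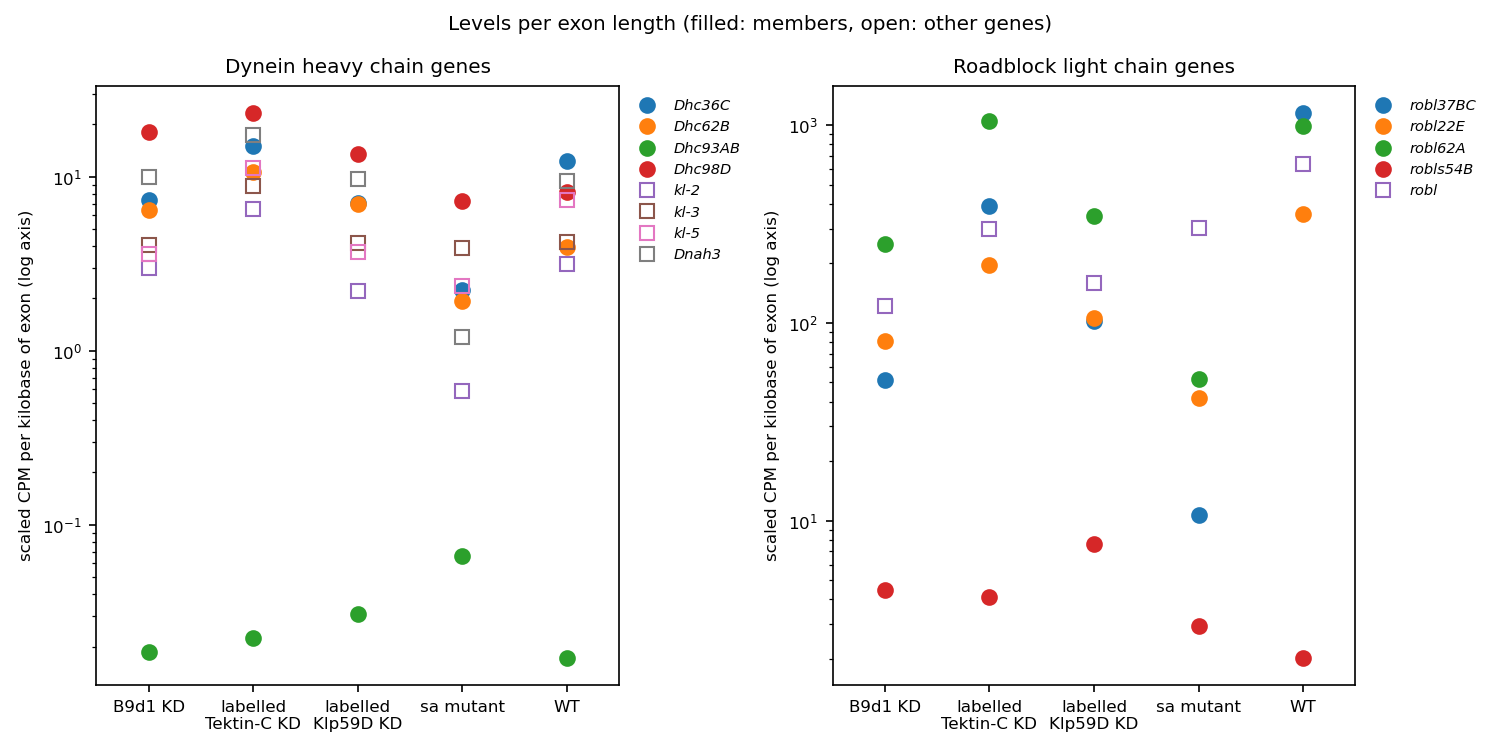
Scaled CPM per kilobase of exon (log axis) in each of the 5 summed samples, for dynein heavy chain genes on the left and Roadblock-type genes on the right. Filled circles are genes of the set described here, and open squares are the Y-linked kl-2, kl-3 and kl-5, Dnah3 and the cytoplasmic light chain gene robl. Dhc98D leads the heavy chains shown except in WT, and robl leads the Roadblock-type genes shown in the sa mutant.

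The Roadblock-type light chains dimerise and bind the intermediate chains of dynein. robl37BC, robl22E and robl62A were high in WT and low in B9d1 KD, in the Klp59D-labelled sample and, most of all, in the sa mutant. Their order of samples was close to that of the summed spermatid markers. robl37BC (2L:19010866-19011532, plus strand, 1 exon) had 33.5 and 34.8 CPM in B9d1 KD libraries, 252.6 and 264.6 in Tektin-C-labelled libraries, 69.2 and 67.3 in Klp59D-labelled libraries, and 6.71 and 7.49 in sa mutant libraries, against 767.0 and 765.1 CPM in WT libraries. Each neighbour in the order differed beyond counting error. It was 22.4-fold lower in B9d1 KD than in WT (21.4 to 23.5), 2.96-fold lower in the Tektin-C-labelled sample (2.89 to 3.02), 11.2-fold lower in the Klp59D-labelled one (10.9 to 11.6) and 107.5-fold lower in the sa mutant (96.6 to 119.9). In whole testes, fewer cells of a stage and less RNA per cell cannot be told apart.

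robl62A (3L:1477619-1478369, plus strand, 1 exon) had 190.8 and 187.6 CPM in B9d1 KD libraries, 801.5 and 773.0 in Tektin-C-labelled libraries, 265.8 and 257.8 in Klp59D-labelled libraries, and 37.5 and 40.8 in sa mutant libraries, against 759.4 and 726.7 CPM in WT libraries. The sample labelled Tektin-C KD was level with WT (1.06-fold, 1.04 to 1.08), and the other 3 lay far below. It was 3.92-fold lower in B9d1 KD than in WT (3.84 to 4.02), 2.84-fold lower in the Klp59D-labelled sample (2.78 to 2.90) and 18.9-fold lower in the sa mutant (18.1 to 19.9). With library size alone, the Klp59D-labelled sample fell just short of the 2-fold line (log2 fold -0.96). robl62A lies within stet on the opposite strand and shares no exon base with it, and stet was at 1.90 to 5.46 CPM across the 5 samples.

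robl22E (2L:2290224-2290738, minus strand) had 42.0 and 40.4 CPM in B9d1 KD libraries, 101.8 and 99.3 in Tektin-C-labelled libraries, 52.4 and 56.0 in Klp59D-labelled libraries, and 21.7 and 20.9 in sa mutant libraries, against 185.2 and 177.4 CPM in WT libraries. The order of conditions was that of robl37BC, over a far smaller range. It was 4.40-fold lower in B9d1 KD than in WT (4.19 to 4.62), 3.34-fold lower in the Klp59D-labelled sample (3.19 to 3.49) and 8.50-fold lower in the sa mutant (7.95 to 9.10). In the Tektin-C-labelled sample it was 1.80-fold lower (1.73 to 1.88), short of the line.

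robls54B (2R:17455743-17456441, minus strand) was the rare one of the Roadblock genes described here. It had 2.85 and 2.20 CPM in B9d1 KD libraries, 2.22 and 2.39 in Tektin-C-labelled libraries, 3.96 and 4.57 in Klp59D-labelled libraries, and 1.54 and 1.76 in sa mutant libraries, against 1.53 and 0.785 CPM in WT libraries. The knockdown samples lay above WT, and the sa mutant did not differ from WT beyond counting error (1.45-fold, 0.957 to 2.25). robls54B was called higher in B9d1 KD (2.20-fold, 1.50 to 3.32) and in the Klp59D-labelled sample (3.76-fold, 2.61 to 5.59). This was opposite in direction to the other 3 Roadblock genes there. In the Tektin-C-labelled sample its ratio of 2.03 fell just short of a call once the prior count was added (log2 fold 0.99). It passed the line there with RLE factors (1.02), library size alone (1.09), no filter (1.02) and a prior count of 0.5 (1.01). It also passed there without WT replicate 1 (1.53), without replicate 1 of that sample (1.04), and in edgeR's or DESeq2's calls. In the sa mutant it passed without WT replicate 1 (1.06) and with library size alone (1.27). The WT libraries held 21 and 12 counts, and the call in B9d1 KD was lost without WT replicate 2 (log2 fold 0.73) or without B9d1 KD replicate 1 (0.92). It lies 30 bases from robl, on the other strand, and robl was at 64.1 CPM in B9d1 KD, 156.7 and 84.0 in the Tektin-C-labelled and Klp59D-labelled samples, and 159.9 in the sa mutant, against 337.1 CPM in WT.

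The shares of the 4 Roadblock genes described here differed between samples as well as their summed level. The 4 genes together had 388.2 CPM per kilobase in B9d1 KD, 1636.6 in the Tektin-C-labelled sample, 564.6 in the Klp59D-labelled one and 107.6 in the sa mutant, against 2493.7 in WT. robl37BC held 13.2%, 23.7%, 18.1% and 9.93% of these sums, against 46.1% in WT, where it was the leading gene. In the other 4 samples the leading gene was robl62A, with 64.9%, 64.0%, 61.7% and 48.5%, against 39.6% in WT. When robl, the widely expressed light chain of cytoplasmic dynein, is added to these 4 genes, it held 23.8% of the 5 genes' summed level per kilobase in B9d1 KD. Its share was 15.4% in the Tektin-C-labelled sample, 22.0% in the Klp59D-labelled one and 73.8% in the sa mutant, against 20.4% in WT. The summed level of these 5 genes in the sa mutant was thus mostly robl. The shares cover these genes only.

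Counts of robl37BC relative to robl62A were 0.176 and 0.186 in B9d1 KD libraries, 0.315 and 0.342 in Tektin-C-labelled libraries, 0.260 and 0.261 in Klp59D-labelled libraries, and 0.179 and 0.184 in sa mutant libraries, against 1.01 and 1.05 in WT libraries. WT was apart from the other 4 samples, with as many counts of one gene as of the other. Counts of robl22E relative to robl62A were 0.220 and 0.215 in B9d1 KD libraries, 0.127 and 0.129 in Tektin-C-labelled libraries, 0.197 and 0.217 in Klp59D-labelled libraries, and 0.580 and 0.513 in sa mutant libraries, against 0.244 and 0.244 in WT libraries. In this ratio the sa mutant stood apart on the high side, and the Tektin-C-labelled sample lay below the others.

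**Figure D3:**
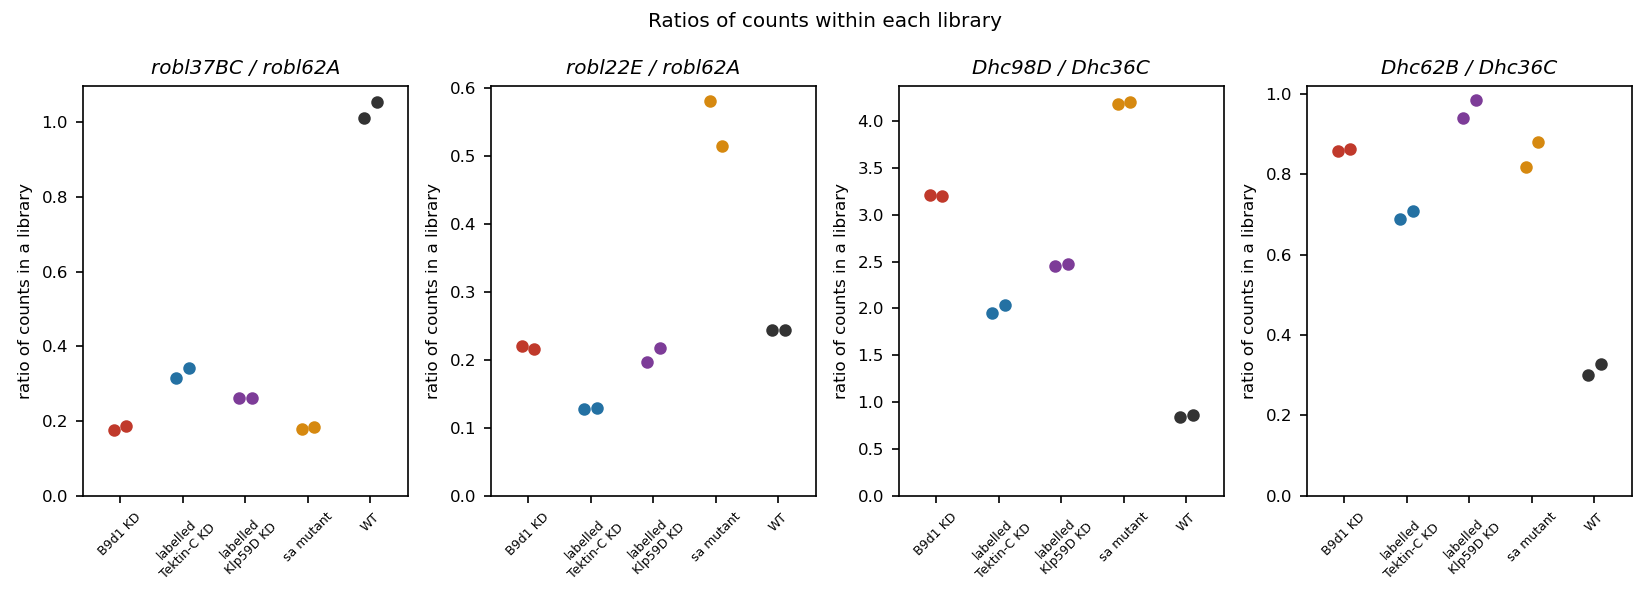
Ratio of the counts of 2 genes within each of the 10 libraries (linear axes from 0), for robl37BC over robl62A, robl22E over robl62A, Dhc98D over Dhc36C and Dhc62B over Dhc36C. WT lies alone in 3 of the 4 ratios, high for robl37BC over robl62A and low for both heavy chain ratios. For robl22E over robl62A, the sa mutant lies above the other samples and the Tektin-C-labelled sample below them.

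The docking factor gene Ccdc114, like the rare robls54B and Dhc93AB, was lowest in WT, where robl37BC and robl22E were highest. As for the 3 abundant Roadblock genes, its level was lower in the sa mutant than in the knockdown samples. For robls54B and Dhc93AB, WT did not differ from the next sample beyond counting error. Ccdc114 (3R:16622735-16624717, minus strand, 5 exons) had 63.5 and 67.0 CPM in B9d1 KD libraries, 33.4 and 32.0 in Tektin-C-labelled libraries, 61.9 and 63.2 in Klp59D-labelled libraries, and 3.20 and 2.58 in sa mutant libraries, against 0.802 and 0.458 CPM in WT libraries. The other samples lay above WT, whose libraries held 11 and 7 counts. It was 105.3-fold higher than in WT in B9d1 KD (66.6 to 177.9), 52.6-fold higher in the Tektin-C-labelled sample (33.2 to 88.9), 100.9-fold higher in the Klp59D-labelled one (63.7 to 170.4) and 4.63-fold higher in the sa mutant (2.82 to 8.04). B9d1 KD and the Klp59D-labelled sample did not differ beyond counting error (1.04-fold, 0.997 to 1.09), and every other neighbour in the order did. CG14893, which lies 32 bases away on the other strand, had 1.38 CPM in B9d1 KD, 0.378 and 1.23 in the Tektin-C-labelled and Klp59D-labelled samples, and 0.558 in the sa mutant, against 0 counts in WT, where 3 counts are the upper limit.

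In flies, wam is the docking gene known from the testis. Per kilobase of exon, wam was at 136.7 CPM in B9d1 KD, 243.0 in the Tektin-C-labelled sample, 143.2 in the Klp59D-labelled one and 55.3 in the sa mutant, against 178.2 CPM in WT. Ccdc114 was at 39.4, 19.7, 37.7 and 1.73 CPM per kilobase in those 4 samples, against 0.374 in WT. Ccdc114 thus made up 22.4% of the 2 genes' summed level in B9d1 KD, 7.48% and 20.8% in the Tektin-C-labelled and Klp59D-labelled samples, and 3.03% in the sa mutant, against 0.209% in WT. CCDC151, a docking factor in humans, was also low in WT, with 2.42 CPM in B9d1 KD, 1.53 and 1.11 in the Tektin-C-labelled and Klp59D-labelled samples, and 1.14 in the sa mutant, against 0.138 CPM in WT.

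Outer-arm docking factors are also known from ciliated neurons, and genes of those cells were measured beside Ccdc114. The neuronal channel genes iav (0.363 CPM in B9d1 KD, 0 in WT) and nan (0.484 and 0.207) were higher in B9d1 KD. The channel gene nompC (0.0864 CPM in B9d1 KD, 0.138 in WT) and Oseg4 (3.18 and 4.34) were lower, short of the line. On the list of ciliated sensory neuron genes, 11 were tested. Of these, 6 were called higher in B9d1 KD and 0 lower, against 27.3% and 25.7% of all genes. The sum of the 12 genes on that list was 105.3 to 107.4 CPM in B9d1 KD libraries and 46.7 to 49.0 CPM in WT libraries, of which rempA, an intraflagellar transport gene, made up 62.6 CPM in B9d1 KD and 17.7 CPM in WT. Accessory gland genes were also low in WT. Their summed level was 514.6 to 523.5 CPM in B9d1 KD libraries, 535.8 to 539.0 in Tektin-C-labelled libraries, 3015 to 3033 in Klp59D-labelled libraries and 1428 to 1455 in sa mutant libraries, against 44.5 to 45.4 CPM in WT libraries. The part of ciliated neurons or of accessory gland in the Ccdc114 counts was not tested.

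**Figure D4:**
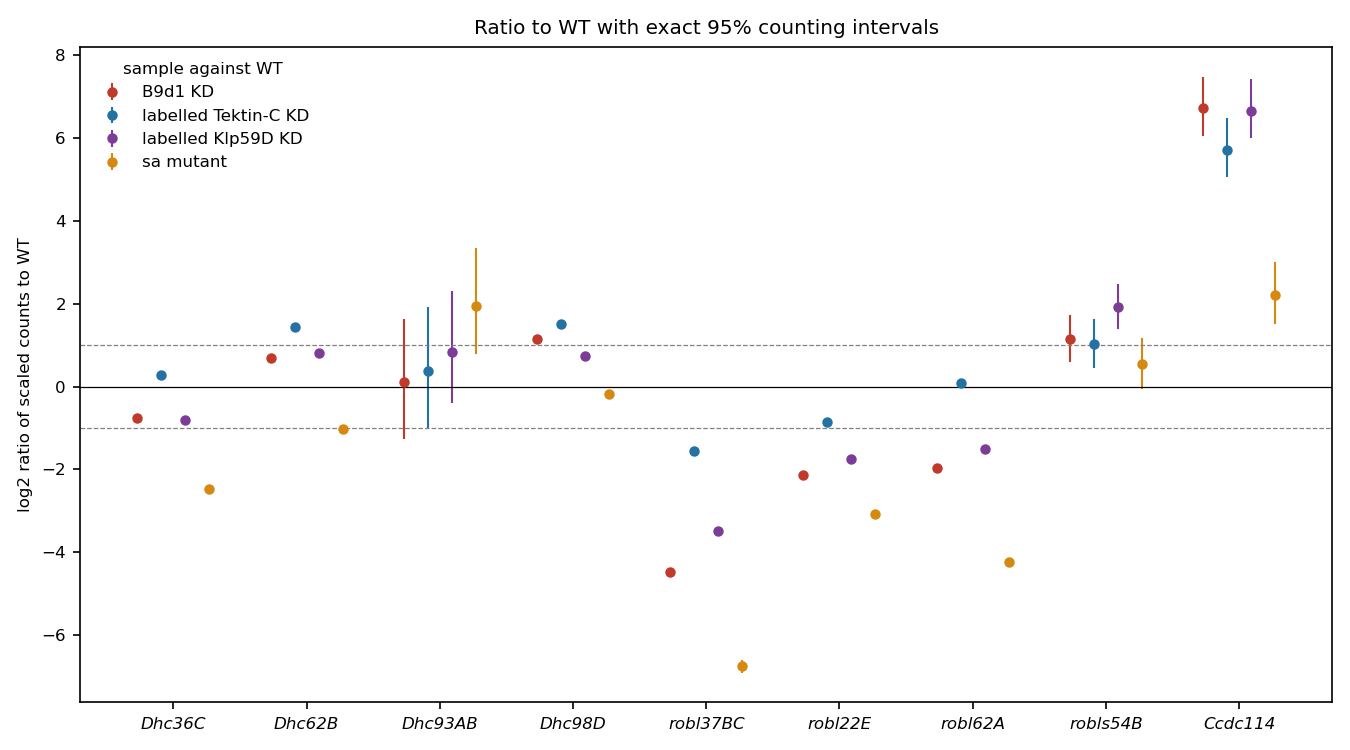
Log2 ratio of scaled counts of each gene to WT in the 4 other samples, with exact 95% intervals for counting error (not visible where smaller than the point), a solid line at no difference and dashed lines at 2-fold. The 3 abundant Roadblock genes lie below WT apart from robl62A in the Tektin-C-labelled sample, Ccdc114 lies far above in all 4, and the heavy chains lie between.

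Against WT, B9d1 KD had 3 of the 9 genes at least 2-fold higher (Dhc98D, robls54B and Ccdc114) and 3 at least 2-fold lower (robl37BC, robl22E and robl62A). Over all 13831 genes tested, 27.3% were called higher and 25.7% lower, and the median log2 fold was 0.09 for the 9 genes and 0.08 for all. In the Tektin-C-labelled sample, 3 were higher (Dhc62B, Dhc98D and Ccdc114) and 1 lower (robl37BC), against 21.2% and 17.1% of all genes. The median log2 fold there was 0.33 for the 9 genes and 0.13 for all. In the Klp59D-labelled sample, 2 were higher (robls54B and Ccdc114) and 3 lower (the 3 abundant Roadblock genes), against 23.6% and 23.2% of all genes, with medians of 0.73 and 0.05. In the sa mutant, 2 were higher (Dhc93AB and Ccdc114) and 5 lower (Dhc36C, Dhc62B, robl37BC, robl22E and robl62A), against 26.4% and 27.7% of all genes, with medians of -1.03 and 0.02. Library size alone moved the split towards higher calls, to 5 higher and 2 lower of the 9 genes in the Klp59D-labelled sample and to 3 and 4 in the sa mutant. Over all genes it gave 5665 higher and 2271 lower in B9d1 KD, 3279 and 2080 in the Tektin-C-labelled sample, 5187 and 2033 in the Klp59D-labelled one, and 6153 and 2494 in the sa mutant. With 9 genes and backgrounds of this size, the counts themselves are not a result about the set, and the 4 comparisons share the WT libraries.

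Marker genes of cell types differed between the samples and WT too. For these markers as well, fewer cells and less RNA per cell cannot be told apart. Summed spermatid markers (Mst87F, dj, Mst77F, ProtA, w-cup and soti) were at 3139 to 3176 CPM in B9d1 KD libraries, 9422 to 9452 in Tektin-C-labelled libraries, 3796 to 3829 in Klp59D-labelled libraries and 614.7 to 621.2 in sa mutant libraries, against 13057 to 13140 CPM in WT libraries. From highest to lowest this is the order of robl37BC and robl22E. Of 6 germ line and spermatocyte markers, 6, 3, 6 and 5 were called higher than in WT in those samples and 0 lower. Of 14 accessory gland genes, 13, 14, 14 and 14 were higher, and of 12 muscle genes 11, 10, 10 and 11 were lower. Acp63F and Mst57Dc, defining genes of the accessory gland, were at 0 in WT. Growth temperature, dicer2, germ cell stage and these other tissues cannot be told apart from the knockdowns in the comparisons with WT, and their part in the values above was not tested.

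B9d1 KD was also set against the 2 other knockdown samples, which shared its driver and temperature but not its labelled stage. Against the Tektin-C-labelled sample, which had low Klp59D, Dhc36C and the 3 abundant Roadblock genes were lower in B9d1 KD. Dhc36C was 2.04-fold lower (1.98 to 2.12), robl37BC 7.57-fold lower (7.22 to 7.94), robl22E 2.44-fold lower (2.32 to 2.57) and robl62A 4.16-fold lower (4.07 to 4.25), while Ccdc114 was 2.00-fold higher (1.89 to 2.13). Ccdc114 sat on the line, and its call was lost without B9d1 KD replicate 2 (log2 fold 0.96) and with RLE factors (0.94). It was also lost without replicate 2 of the Tektin-C-labelled (0.98) or the Klp59D-labelled sample (0.99). The same held with CPM over 5 (0.98), with structural and mitochondrial RNA left out (0.98), and in DESeq2's calls. That is 4 of 9 lower and 1 of 9 higher, against 19.7% and 14.6% of all genes, with medians of -0.73 and -0.01. The spermatid markers were lower in B9d1 KD too (5 of 6 called). With library size alone, Dhc36C (log2 fold -0.55) and robl22E (-0.81) no longer reached the line, and Dhc98D turned from -0.35 to 0.13, as the median of all genes moved by 0.46 and the split over all genes to 4032 higher and 1518 lower.

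Against the Klp59D-labelled sample, which had low Tektin-C, B9d1 KD had 0 of 9 genes called, against 6.28% of all genes higher and 7.13% lower. No test enters this 0. DESeq2 over all 10 libraries called 1, by a 2-fold difference and its own p-value. That p-value takes the 2 libraries of a condition as replicates, so it is no test between conditions. The nearest to the line was robl37BC, at 34.2 CPM in B9d1 KD and 68.2 CPM in the Klp59D-labelled sample (1.995-fold lower, 1.89 to 2.11). The other 8 ranged in log2 fold between -0.76 for robls54B and 0.43 for Dhc98D, and the median was -0.40, against 0.00 for all genes. These 2 comparisons share the B9d1 KD libraries, and knocked-down gene and labelled stage cannot be told apart in either.

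**Figure D5:**
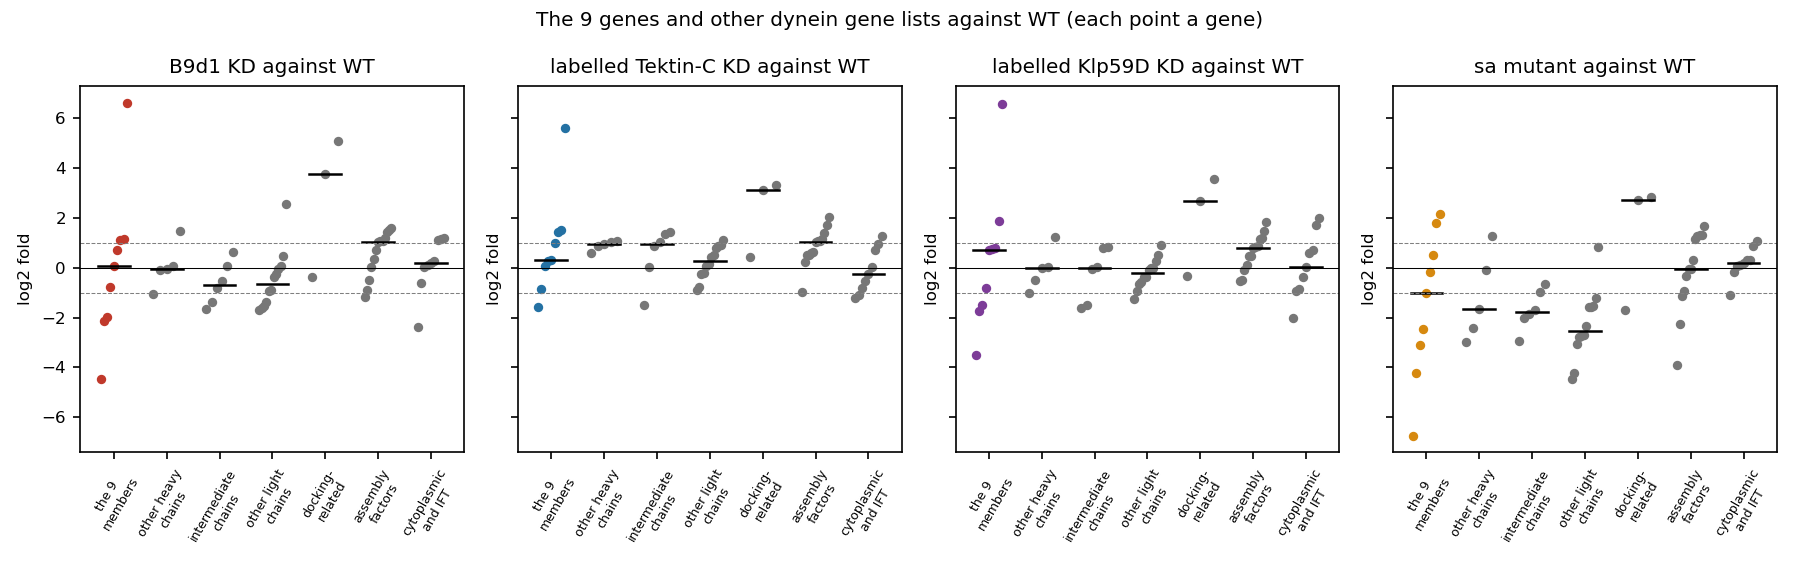
Log2 fold against WT of each measured gene in the set described here (coloured) and in 6 lists of related genes (grey), in the 4 samples, with a short bar at each list's median and dashed lines at 2-fold. In the sa mutant, 11 of the 12 other light chain genes lie at least 2-fold below WT; the docking-related genes CCDC151 and CG13251 lie above WT in all 4 samples.

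Other genes of the dynein arms were counted from lists drawn up by role, and their counts stand beside the same backgrounds. Of all genes, 27.3% were called higher and 25.7% lower in B9d1 KD than in WT, 21.2% and 17.1% in the Tektin-C-labelled sample, 23.6% and 23.2% in the Klp59D-labelled one, and 26.4% and 27.7% in the sa mutant. The lists are short, many of their counts lie near these shares, and no list was tested. Of 5 other axonemal heavy chains with a match, 1 was higher and 1 lower in B9d1 KD than in WT, 2 and 0 in the Tektin-C-labelled sample, 1 and 1 in the Klp59D-labelled one, and 1 and 3 in the sa mutant. Their median log2 folds were -0.07, 0.97, -0.03 and -1.64 in those samples, against 0.08, 0.13, 0.05 and 0.02 for all genes. The Y-linked heavy chains kl-2, kl-3 and kl-5, which build giant transcripts in spermatocytes, parted in the sa mutant. kl-2 had 7.89 CPM in the sa mutant and 42.4 CPM in WT, and kl-5 had 32.4 and 101.1 CPM. By contrast, kl-3 had 54.4 CPM in the sa mutant and 58.9 CPM in WT. Dnah3, an inner-arm heavy chain on 3L, had 17.0 CPM in the sa mutant and 134.0 CPM in WT.

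Of 6 intermediate chain genes, 0 were higher and 2 lower in B9d1 KD than in WT, 3 and 1 in the Tektin-C-labelled sample, 0 and 2 in the Klp59D-labelled one, and 0 and 4 in the sa mutant, with medians of -0.67, 0.95, -0.02 and -1.78. Of 12 other light chain genes, 1 was higher and 4 lower in B9d1 KD, and 1 and 0 in the Tektin-C-labelled sample. In the Klp59D-labelled sample the counts were 0 and 1, and in the sa mutant 0 and 11. The median log2 fold in the sa mutant was -2.53, against 0.02 for all genes. ODA-Dnal1, a leucine-rich repeat light chain of the outer arm, had 0.702 CPM in the sa mutant and 16.3 CPM in WT. Dnali1, an inner-arm chain, had 45.6 CPM in the sa mutant and 301.2 CPM in WT. CG5359 was the exception in the sa mutant, with a log2 fold of 0.82, and in B9d1 KD it was the gene of the list that was higher (66.2 CPM in B9d1 KD, 11.3 CPM in WT).

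Other factors assemble dynein arms in the cytoplasm before they enter the tail. Of 13 measured, 7 were higher and 1 lower in B9d1 KD, 7 and 0 in the Tektin-C-labelled sample, 4 and 0 in the Klp59D-labelled one, and 5 and 3 in the sa mutant. Their median log2 folds were 1.04, 1.04, 0.80 and -0.04. tilB had 112.1 CPM in B9d1 KD, 168.8 and 150.3 in the Tektin-C-labelled and Klp59D-labelled samples, and 104.7 in the sa mutant, against 41.7 CPM in WT. dtr had 136.7 CPM in B9d1 KD, 673.1 and 181.6 in the Tektin-C-labelled and Klp59D-labelled samples, and 17.0 in the sa mutant, against 254.5 CPM in WT. tilB was thus called higher in all 4 samples, and dtr was called higher in the Tektin-C-labelled sample and lower in the sa mutant.

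Genes whose levels over the 5 samples ran most like those of a member were sought by the root mean square distance of centred log2 CPM, among 6964 genes with enough RNA. Over 5 samples such a distance is a description. The gene nearest to Dhc62B was CG9313, an intermediate chain gene (distance 0.0428), followed by CG32572 (0.0509) and nudE (0.123). CG18662 was nearest to Dhc36C (0.0587), Mics1 to robl62A (0.0225), CG31473 to robl22E (0.101) and CG3199 to robl37BC (0.204). The nearest to Ccdc114 was RnrS, a ribonucleotide reductase subunit, at the far larger distance of 1.22. Only genes with a mean log2 CPM of at least 4 were searched. Ccdc114 itself did not reach that mean, so genes at its own level were left out. Among the 9 genes, Dhc62B and Dhc98D were nearest to each other (0.352) and robl37BC and Ccdc114 farthest apart (3.94).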

How the data were processed

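Total RNA of whole testes was depleted of ribosomal RNA and sequenced with a stranded kit, per the labels' protocols. The deposited files hold whole-number read counts for each gene, not normalized. The submitters' processing notes name the tools STAR 2.5.1b and Trim Galore 0.4.1 and the build dm6, without their roles. How reads were counted, on which strand and with which annotation is not given in the sources used here. Symbols and coordinates came from Ensembl's annotation of dm6 (17138 identifiers with a symbol), and exon length is that of merged exons. Groups followed the labels.

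The counts of the 2 libraries of a condition were summed, genes passing edgeR 4.0.16 filterByExpr were kept (13831, R 4.3.3), and TMM factors were computed over the 5 sums. Log2 folds used a prior count of 2. Fold intervals are exact binomial (Clopper-Pearson, 95%), and without molecular identifiers they cover counting error only. The steps were tested on simulated counts. Alternatives tried were scaling by RLE factors or by library size alone, no filter, and CPM over 5 in at least 2 libraries. Others were leaving out 615 structural or mitochondrial RNA genes, a prior count of 0.5, and each library left out. The last were edgeR's and DESeq2 1.42.0's calls over all 10 libraries, and a replicate block. These calls ask for a 2-fold difference and an adjusted p below 0.05. Their p takes the 2 libraries of a condition as replicates, so it is no test between conditions.

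All 9 members and any measured gene of a list could be named, with the 3 nearest genes by profile for each member with 50 counts or more in a sample and a 4-fold range (mean log2 CPM at least 4). Members and lists were chosen with earlier results of these data known. A planned look at protein and promoter sequences was not carried out.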

Additional observations from a re-analysis of the deposited data

How the results depend on the processing

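Over all alternatives, 108 counts of members called stayed within 1.5 times the value reported and 6 did not, and 113 counts over all genes did and 1 did not. Of the members' log2 folds, 800 stayed within their counting interval and 52 did not, mostly with library size alone, and no called fold changed sign. Library size alone took the members called between B9d1 KD and the Tektin-C-labelled sample to 3 (5 reported). Between B9d1 KD and the Klp59D-labelled sample, robl37BC was called (1 member, 0 reported) with CPM over 5, with structural and mitochondrial RNA left out and with DESeq2. Leaving out a library gave 0 to 2 there. robl37BC and Dhc93AB were called without B9d1 KD replicate 2 or without replicate 2 of the Klp59D-labelled sample. CPM over 5 kept 7 members and took that comparison's calls over all genes to 1035 (869 higher and 986 lower reported). Without replicate 1 of the Tektin-C-labelled sample, Dhc93AB in B9d1 KD against that sample went to a log2 fold of 1.28 (-0.24 reported). Same-numbered libraries deviated together weakly in all 10 pairs of conditions (r 0.0964 to 0.170 over 7795 genes), and library 2 was 1.11 to 1.12 times as deep as library 1 in every condition; the labels give them no more than a shared number. With the replicate block, edgeR's calls gave 6 members in B9d1 KD against WT and 7 in the sa mutant against WT. They gave 5 in both the Tektin-C-labelled and Klp59D-labelled sample against WT, and 5 and 0 in B9d1 KD against those labelled samples. No member's call changed except that of robls54B in the Tektin-C-labelled sample, which also passed in the fit without the block. Depth limits Dhc93AB, robls54B and Ccdc114 in WT, and leaving out a library moved the other 6 members by at most 0.10, and Ccdc114 by up to 0.43 (log2).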

Other observations

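Cytoplasmic and intraflagellar dynein genes were counted too, the Roadblock gene robl among them. Of 9 measured, 3 were at least 2-fold higher and 1 lower in B9d1 KD than in WT, 1 and 2 in the Tektin-C-labelled sample, 2 and 1 in the Klp59D-labelled one, and 1 and 1 in the sa mutant. The shares of all genes were 27.3% higher and 25.7% lower, 21.2% and 17.1%, 23.6% and 23.2%, and 26.4% and 27.7%, and the list was not tested. robl was lower than WT in all 4 samples, with log2 folds between -2.39 in B9d1 KD and -1.08 in the sa mutant. Dhc64C, the cytoplasmic dynein heavy chain, had 285.8 CPM in B9d1 KD, 151.5 and 148.6 in the Tektin-C-labelled and Klp59D-labelled samples, and 277.6 in the sa mutant, against 266.2 CPM in WT. btv, the intraflagellar dynein heavy chain of ciliated neurons, had 4.01 CPM in B9d1 KD, 3.63 and 6.12 in the Tektin-C-labelled and Klp59D-labelled samples, and 3.94 in the sa mutant, against 1.83 CPM in WT. fd3F, a transcription factor of ciliated neurons, had 1.16 CPM in B9d1 KD, 0.713 and 0.971 in the Tektin-C-labelled and Klp59D-labelled samples, and 0.372 in the sa mutant, against 0.207 CPM in WT. Rfx, which acts beside it in those neurons, had 18.9 CPM in B9d1 KD and 9.72 CPM in WT.

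The genes next to robl22E ran partly with it. CG17237, 807 bases away on the same strand, had 218.7 CPM in B9d1 KD, 765.0 and 400.1 in the Tektin-C-labelled and Klp59D-labelled samples, and 90.6 in the sa mutant, against 860.0 CPM in WT. RpL30, 1559 bases from robl37BC on the other strand, had 277.4 CPM in B9d1 KD and 334.2 CPM in the sa mutant, against 278.8 CPM in WT. In the Tektin-C-labelled and Klp59D-labelled samples RpL30 was lower, at 140.8 and 197.1 CPM.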
